A study of Mus musculus with 6 samples.

Results

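Chemokine and chemokine receptor genes were followed in the epididymal white adipose tissue (eWAT) of obese mice. All genes were taken whose only annotated symbol names a CC or CXC ligand or receptor, together with Cx3cl1, Cx3cr1, Xcl1, Xcr1 and the atypical receptors Ackr1, Ackr2, Ackr3 and Ackr4. The symbol alone chose them, without any measured value. This gave 56 of the 19938 genes with a symbol of their own on the arrays, of which 34 encode ligands and 22 receptors. The mice were males of the C57BL6/J strain that ate a high-fat diet (HFD) from 6 weeks of age onward for 12 weeks, and total RNA of their eWAT was measured on 6 Affymetrix mouse Gene ST arrays. In the rAAV-Lmo3 group, 3 arrays were hybridized with eWAT RNA after injection of the fat pad, during the diet, with a recombinant adeno-associated virus (rAAV, serotype Rec2) that encodes Lmo3, a LIM-only transcriptional cofactor. In the rAAV-YFP group, 3 arrays came from mice whose virus encoded yellow fluorescent protein. Each array is a pool of 2 mice, all animals of both groups received virus and HFD, and the CMV enhancer/chicken beta-actin promoter of the vectors is not restricted to adipocytes.

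Chemokines are small secreted proteins that steer leukocytes along concentration gradients by binding G protein-coupled receptors on their surface. Atypical receptors bind chemokines without this signal and transport or remove them. In obese fat, adipocytes, stromal cells and resident macrophages release ligands such as Ccl2, which draws monocytes that carry Ccr2 into the tissue, where they become macrophages.

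The promoters of Cxcl9 and Cxcl10 are shown because these neighbouring genes on chromosome 5, ligands of the T cell receptor Cxcr3 that interferon gamma induces, were high together on a single array. The sequences are the 250 bases before the RefSeq start of each gene (GRCm38.p6, both on the minus strand, chr5:92328080-92328329 for Cxcl9 and chr5:92348890-92349139 for Cxcl10), with matches to the motifs named after them in capitals.
Cxcl9: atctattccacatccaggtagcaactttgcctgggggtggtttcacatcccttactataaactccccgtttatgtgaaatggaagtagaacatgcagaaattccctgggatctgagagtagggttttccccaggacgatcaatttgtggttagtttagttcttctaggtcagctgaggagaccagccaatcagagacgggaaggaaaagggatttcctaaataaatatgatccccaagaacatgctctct
Cxcl10: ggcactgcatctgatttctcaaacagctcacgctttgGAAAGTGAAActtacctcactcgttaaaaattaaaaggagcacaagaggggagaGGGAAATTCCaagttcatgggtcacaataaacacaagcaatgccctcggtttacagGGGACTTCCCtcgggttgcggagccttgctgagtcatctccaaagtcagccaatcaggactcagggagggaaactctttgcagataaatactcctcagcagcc
Both strands were searched for the interferon-stimulated response element (ISRE), written GAAA and GAAA with 2 free bases between them, the gamma-activated site TTCNNNGAA and the NF-kappaB motif. Cxcl10 held an ISRE that begins 213 bases before the start and NF-kappaB motifs that begin 159 and 103 bases before it, whereas none of these letters were found in the Cxcl9 window. RefSeq promoters were matched for 42 of the 56 genes (44 promoters). The ISRE was found in 6.82% of them (Ccl19, Cxcl10 and Cxcl14), against 2.98% of all 32851 promoters, the gamma-activated site in 9.09% against 7.02%, and the NF-kappaB motif in 20.5% (Ackr2, Ccl20, Ccl9, Ccr3, Ccr6, Cxcl1, Cxcl10, Cxcl2 and Cxcl3) against 3.9%. These are descriptions of letters and not of binding.

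Median intensities lay between 123 and 127.5 on the 6 arrays. Precision is limited by how few arrays there are, since an exact permutation test of 3 pools against 3 has 0.1 as its smallest p. Two-sided p-values set the group difference against the spread between pools, which limma moderates across genes. With 2 mice in each pool they do not measure the spread between single animals. The tissue label held: all 10 measured adipocyte markers lay above the brightness limit, and none of the 5 measured markers of epididymis epithelium did. The probe set for Lmo3 gave 24, 26 and 24 on the rAAV-Lmo3 arrays and 25, 24 and 24 on the rAAV-YFP arrays, too dim to check the labels. Macrophage markers set a pair of arrays apart. The mean over 19 markers of the log2 intensity centred per gene was -0.38, 0.21 and 0.44 on rAAV-Lmo3 1, 2 and 3, and 0.44, -0.70 and -0.01 on rAAV-YFP 1, 2 and 3, so that rAAV-Lmo3 1 and rAAV-YFP 2 were low. Of these markers 17 had a difference above 0 (50.3% of all genes tested). At an unadjusted limma p under 0.05 there were 0 higher (2.27% of all genes) and 1 lower, Mertk (2.4% of all genes). The score averaged 0.09 in rAAV-Lmo3 eWAT and -0.09 in rAAV-YFP eWAT. The groups overlapped, and the low rAAV-YFP 2 bears on the sign of these differences.

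The comparison asks whether delivery of Lmo3 went with a different chemokine program in obese eWAT. Genes among the dimmest 40% (below an intensity of 114) were left out, which kept 28 of the 56 genes: 20 ligands and 8 receptors. None of the 28 differed between the groups after Benjamini-Hochberg adjustment over all 11963 genes tested with limma, where the adjusted call was made for 0% of genes, and the smallest adjusted p among them was 0.97. At an unadjusted p under 0.05 limma had 1 gene lower in rAAV-Lmo3 eWAT, Ccr7 (2.4% of all genes were lower), and 0 higher (2.27% of all genes). The methods' t-test had the same counts, 1 lower (2.69% of all genes) and 0 higher (1.95% of all genes), and 0 after adjustment. With each array centred on its median, 317 of all genes were higher and 216 lower at this p, against 271 and 287 without that step. The log2 difference, rAAV-Lmo3 minus rAAV-YFP, lay above 0 for 15 genes and below 0 for 13, with a median of 0.03 against 0.00 over all genes. The groups did not overlap for 2 genes that were lower, Ccl11 and Ccr7 (5.95% of all genes), and for 0 that were higher (4.53% of all genes). In either direction, 4.66% of all genes had an unadjusted p under 0.05 and 10.5% had groups apart, so the counts among the 28 genes were near or under this background.

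**Figure D1:**
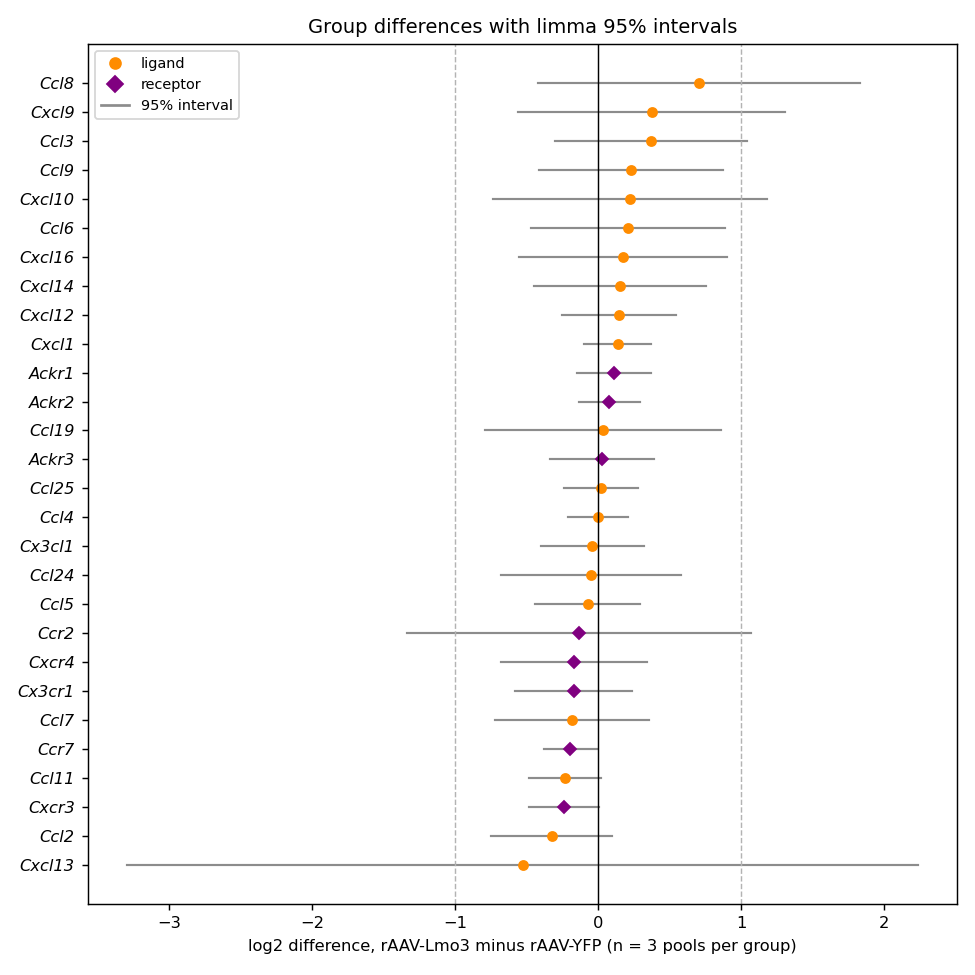
Log2 difference between rAAV-Lmo3 and rAAV-YFP eWAT (horizontal axis, n = 3 pools per group) for the 28 tested genes, with ligands as circles, receptors as diamonds and limma 95% intervals as bars. Dashed lines mark a 2-fold difference in either direction, and the interval of Ccr7 is the one interval that does not reach 0.

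The precision differed from gene to gene. The 95% interval stayed within a 2-fold difference in either direction for 22 genes, and within 0.5 on the log2 scale for 11 of them. It passed 2-fold for Ccl3, Ccl8, Cxcl9, Cxcl10, Cxcl13 and Ccr2. The range over the 6 arrays had a median of 0.73 on the log2 scale for these genes, against 0.37 for all genes tested, while the median size of the group difference was 0.17.

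**Figure D2:**
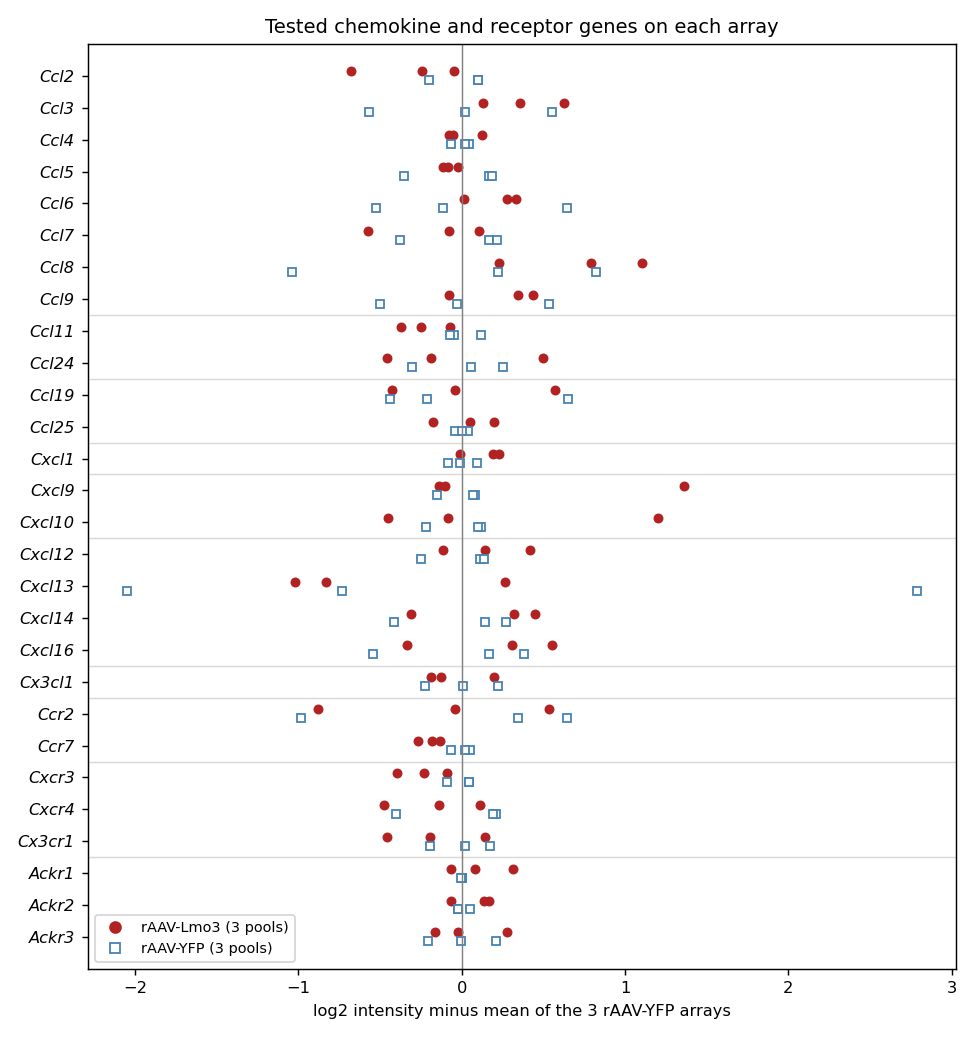
Log2 intensity of each tested gene on each array relative to the mean of its 3 rAAV-YFP arrays, with rAAV-Lmo3 pools as filled circles above the rAAV-YFP pools as open squares and grey lines between role groups. The groups overlap or meet for all genes but Ccl11 and Ccr7, and single pools lie far out for Cxcl9, Cxcl10 and Cxcl13.

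Ligands that attract monocytes and macrophages were the best measured family, with 8 of 9 above the brightness limit. Ccl2, the ligand that recruits Ccr2-bearing monocytes to obese fat, had intensities of 972, 1113 and 721 in rAAV-Lmo3 eWAT and 1237, 1001 and 1237 in rAAV-YFP eWAT. One rAAV-YFP pool lay below the highest rAAV-Lmo3 pool, so the groups overlapped. The log2 difference was -0.32 ± 0.18 (SE, n = 3 pools per group), or 1.25-fold lower, with an adjusted limma p of 0.97, and it was -0.15 without rAAV-Lmo3 3 and -0.46 without rAAV-Lmo3 2. Ccl7, the related monocyte ligand encoded next to Ccl2, had 780, 887 and 553 in rAAV-Lmo3 eWAT and 925, 634 and 958 in rAAV-YFP eWAT (-0.18 ± 0.23). Its lowest pool was rAAV-Lmo3 3, as for Ccl2.

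Ccl8, a monocyte ligand of the same cluster on chromosome 11, had the largest positive difference of the 28 genes. Its intensities were 251, 459 and 371 in rAAV-Lmo3 eWAT and 249, 104 and 378 in rAAV-YFP eWAT, a log2 difference of 0.71 ± 0.47 (1.63-fold). The 3 rAAV-Lmo3 pools lay within the span of the rAAV-YFP pools apart from rAAV-Lmo3 2, and rAAV-YFP 2 was the lowest of all. Without rAAV-YFP 2 the difference was 0.19, and without rAAV-YFP 3 it was 1.12, with an unadjusted limma p of 0.045. The macrophage score of rAAV-YFP 2 was also the lowest, and the part of macrophage content in the difference was not tested. In bulk tissue, fewer cells of a type and less RNA per cell cannot be told apart.

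Ccl3, which acts through inflammatory CC receptors on macrophages and T cells, had 312, 267 and 376 in rAAV-Lmo3 eWAT and 357, 164 and 247 in rAAV-YFP eWAT (0.37 ± 0.28). Here too rAAV-YFP 2 was lowest, and the difference without it was 0.09. Without rAAV-YFP 1, the highest rAAV-YFP pool, it was 0.65, with an unadjusted limma p of 0.029. Ccl6 and Ccl9, myeloid ligands of the mouse, were among the brighter probe sets, with Ccl6 at 2191, 2626 and 2736 in rAAV-Lmo3 eWAT and 3396, 1506 and 2001 in rAAV-YFP eWAT (0.21 ± 0.28). Ccl9 had 2100, 2812 and 2996 in rAAV-Lmo3 eWAT and 3209, 1566 and 2172 in rAAV-YFP eWAT (0.23 ± 0.27). For both genes the highest and the lowest pool were rAAV-YFP pools, and without rAAV-YFP 2 the differences were -0.06 for Ccl6 and -0.02 for Ccl9. Without rAAV-YFP 1 they were 0.53 for Ccl6 and 0.50 for Ccl9, with unadjusted limma p-values of 0.020 and 0.059 in that order.

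Ccl5, a ligand of T cells and monocytes, had 319, 325 and 340 in rAAV-Lmo3 eWAT and 388, 270 and 392 in rAAV-YFP eWAT (-0.07 ± 0.15). The rAAV-Lmo3 pools were close together, between the low rAAV-YFP 2 and the other two rAAV-YFP pools. Ccl4 stayed between 111 and 128 in rAAV-Lmo3 eWAT and between 112 and 121 in rAAV-YFP eWAT. Ccl12, a Ccr2 ligand found in mice, was left out as dim, with 160, 113 and 96 in rAAV-Lmo3 eWAT and 70, 82 and 117 in rAAV-YFP eWAT. Within the neighbouring genes Ccl2, Ccl7, Ccl11, Ccl12 and Ccl8 the differences therefore had both signs. Ccl12 was not tested, and none of the others passed the test.

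Across the 8 tested monocyte and macrophage ligands, 4 differences lay above 0 and 4 below, with a median of 0.10. All 8 were lower on rAAV-YFP 2 than on the other two rAAV-YFP arrays on average, by a median of 0.66 on the log2 scale. Their mean centred log2 intensity was -0.06, 0.19 and 0.05 in rAAV-Lmo3 eWAT, against 0.25, -0.51 and 0.09 in rAAV-YFP eWAT. The macrophage markers were lowest on the same array, and so were the adipose progenitor and fibroblast markers. The part of macrophage or stromal content in these ligands was not tested.

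Ccl11 (eotaxin), which attracts eosinophils through Ccr3, was 1 of the 2 genes whose groups did not overlap. It had 1537, 1362 and 1252 in rAAV-Lmo3 eWAT and 1566, 1539 and 1755 in rAAV-YFP eWAT. The nearest pools of the groups were almost level. The log2 difference was -0.23 ± 0.11 (1.17-fold lower), with an unadjusted limma p of 0.066 and an adjusted p of 0.97. Ccl24, another eotaxin, had 208, 107 and 129 in rAAV-Lmo3 eWAT and 119, 175 and 153 in rAAV-YFP eWAT (-0.05 ± 0.26), so that its highest and lowest pools were both rAAV-Lmo3. Its difference was -0.32 without rAAV-Lmo3 1 and 0.15 without rAAV-Lmo3 2. Ccl1, Ccl17 and Ccl22, ligands of T helper 2 and regulatory T cell receptors, were dim, and so was the eotaxin receptor Ccr3.

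Of the lymphoid and epithelial ligands, Ccl19, which draws Ccr7-bearing T cells and dendritic cells, had 279, 556 and 365 in rAAV-Lmo3 eWAT and 323, 277 and 589 in rAAV-YFP eWAT (0.03 ± 0.35). The pools varied widely within each group, and the difference was -0.23 without rAAV-Lmo3 2 and 0.36 without rAAV-YFP 3. Ccl19 is represented by 5 probe sets with nearly equal values, which may not be separate measurements. Ccl25, a thymic and intestinal ligand, had 167, 216 and 195 in rAAV-Lmo3 eWAT and 194, 183 and 189 in rAAV-YFP eWAT (0.02 ± 0.11). Ccl20 and Ccl28 were dim, and so was Ccl26, an eotaxin that was grouped here and not with Ccl11 and Ccl24.

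Of the neutrophil-attracting CXC ligands, 1 of 5 lay above the brightness limit. Cxcl1 had 251, 245 and 213 in rAAV-Lmo3 eWAT and 213, 229 and 202 in rAAV-YFP eWAT, a log2 difference of 0.14 ± 0.10 with overlapping groups. Cxcl2, Cxcl3, Cxcl5 and Cxcl15 were dim, and their receptor Cxcr2 had 25, 20 and 19 in rAAV-Lmo3 eWAT and 21, 23 and 20 in rAAV-YFP eWAT. Of 10 neutrophil markers, 3 lay above the brightness limit.

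**Figure D3:**
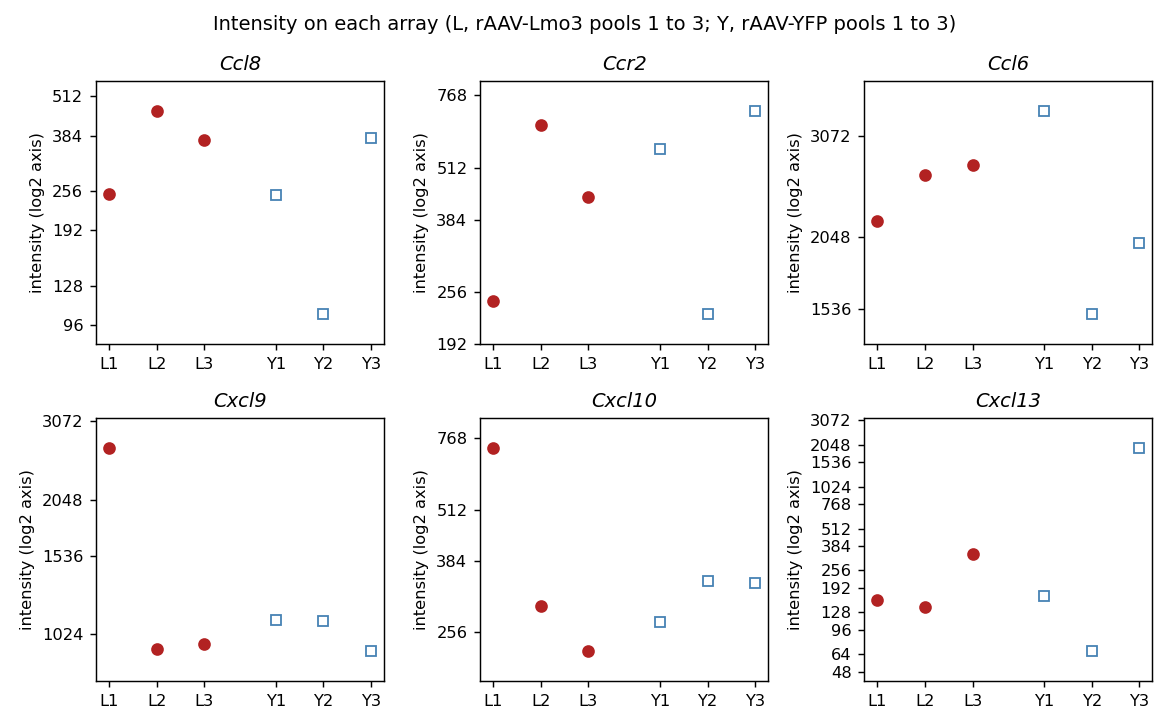
Intensity of 6 genes on each array (log2 vertical axis), with rAAV-Lmo3 pools (L1 to L3) as filled circles left of the rAAV-YFP pools (Y1 to Y3) as open squares. Ccl8, Ccr2 and Ccl6 were lowest on Y2, Cxcl9 and Cxcl10 were highest on L1, and Cxcl13 was highest on Y3.

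The interferon-inducible ligands Cxcl9 and Cxcl10 differed by 0.37 ± 0.39 and 0.22 ± 0.40 on the log2 scale. Cxcl9 had 2676, 949 and 973 in rAAV-Lmo3 eWAT and 1102, 1095 and 941 in rAAV-YFP eWAT. Cxcl10 had 727, 298 and 231 in rAAV-Lmo3 eWAT and 271, 343 and 339 in rAAV-YFP eWAT. Both positive differences rested on rAAV-Lmo3 1, where Cxcl9 was higher than on the other two rAAV-Lmo3 arrays by 1.48 and Cxcl10 by 1.47 on the log2 scale. Without this pool the differences had the other sign, -0.12 for Cxcl9 and -0.27 for Cxcl10. The dim Cxcl11, the further ligand of this family, had 87, 61 and 60 in rAAV-Lmo3 eWAT and 66, 84 and 61 in rAAV-YFP eWAT.

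Other interferon gamma targets were high on the same array. Of 12 such genes, listed after the values of Cxcl9 and Cxcl10 had been seen, 9 were highest on rAAV-Lmo3 1, where 26.0% of all genes tested were highest. Iigp1, an interferon-induced GTPase that defends against intracellular pathogens, had 854, 306 and 322 in rAAV-Lmo3 eWAT and 309, 321 and 369 in rAAV-YFP eWAT. Irf1, the transcription factor that carries much of the response, had 745, 551 and 467 in rAAV-Lmo3 eWAT and 454, 506 and 554 in rAAV-YFP eWAT. Ciita, the activator of MHC class II genes, went the other way, with 185, 457 and 363 in rAAV-Lmo3 eWAT and 353, 201 and 459 in rAAV-YFP eWAT, and was lowest on rAAV-Lmo3 1. Cd274 and Tap1 were likewise not highest there.

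The remaining CXC ligands were Cxcl12, Cxcl13, Cxcl14 and Cxcl16. Cxcl13, which organises B cells in lymphoid tissue through Cxcr5, had 158, 139 and 339 in rAAV-Lmo3 eWAT and 169, 68 and 1943 in rAAV-YFP eWAT. The high value of rAAV-YFP 3 lay beside the lowest value of all on rAAV-YFP 2, a range of 4.84 on the log2 scale that was the largest of the 28 genes. The difference of -0.53 ± 1.16 became 0.87 without rAAV-YFP 3.

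On rAAV-YFP 3, 5 of 6 tested mesothelial markers were also highest, and the mean over these markers of the centred log2 intensity was -0.21, -0.48 and 0.11 in rAAV-Lmo3 eWAT, against -0.38, -0.02 and 0.98 in rAAV-YFP eWAT. Upk3b, a uroplakin of the mesothelium that covers visceral fat, had 224, 173 and 332 in rAAV-Lmo3 eWAT and 186, 244 and 730 in rAAV-YFP eWAT. The B cell gene Ms4a1 was dim, with 28, 28 and 45 in rAAV-Lmo3 eWAT and 27, 25 and 79 in rAAV-YFP eWAT, and also highest on rAAV-YFP 3. Of the 2 tested B cell markers, Cd79b was highest on rAAV-YFP 3 (230) and Cd22 on rAAV-Lmo3 3 (306, against 262 on rAAV-YFP 3). The T cell, dendritic cell, NK cell and B cell scores were likewise highest on rAAV-YFP 3, at 0.28, 0.27, 0.18 and 0.28. Those of the remaining cell types were not. On rAAV-YFP 3, 8 of the 28 chemokine and receptor genes were highest (28.6%, against 15.9% of all genes tested). The part of these cell types in the Cxcl13 value was not tested.

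Cxcl12, the stromal ligand of Cxcr4, had 627, 906 and 749 in rAAV-Lmo3 eWAT and 733, 572 and 747 in rAAV-YFP eWAT (0.15 ± 0.17). Cxcl14, a ligand of adipocytes and fibroblasts, had 185, 313 and 286 in rAAV-Lmo3 eWAT and 277, 172 and 253 in rAAV-YFP eWAT (0.15 ± 0.25). Cxcl16, the membrane-bound ligand of Cxcr6 and a scavenger of oxidised lipid, had 253, 396 and 469 in rAAV-Lmo3 eWAT and 358, 219 and 416 in rAAV-YFP eWAT (0.18 ± 0.31). Each of these was lowest on rAAV-YFP 2 with rAAV-Lmo3 1 next, the order of the macrophage score at its low end. The score of 9 adipose progenitor and fibroblast markers had the same low end, -0.28 on rAAV-YFP 2 and -0.16 on rAAV-Lmo3 1. The adipocyte score was highest on these arrays, at 0.20 on each. The part of any of these cell types in the 3 ligands was not tested. The Cxcl12 difference was 0.01 without rAAV-Lmo3 2 and 0.28 without rAAV-Lmo3 1. Cx3cl1 (fractalkine), the membrane-anchored ligand of Cx3cr1, had 148, 193 and 154 in rAAV-Lmo3 eWAT and 144, 169 and 196 in rAAV-YFP eWAT, with overlapping groups (-0.04 ± 0.15).

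Among the receptors, 5 of the 8 tested lay below 0, these being both CC receptors and all 3 CXC and CX3C receptors tested. Ccr2, which marks inflammatory monocytes, had 244, 650 and 436 in rAAV-Lmo3 eWAT and 570, 227 and 702 in rAAV-YFP eWAT (-0.13 ± 0.50). Its low pools were rAAV-Lmo3 1 and rAAV-YFP 2, 1 in each group and the same as for the macrophage markers, and the difference was -0.62 without rAAV-YFP 2, 0.24 without rAAV-Lmo3 1 and -0.25 without both. Ccr1, a receptor of Ccl3 and Ccl5, was dim, with 60, 73 and 69 in rAAV-Lmo3 eWAT and 112, 63 and 75 in rAAV-YFP eWAT.

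Ccr7, the homing receptor of naive T cells and mature dendritic cells, had 115, 126 and 122 in rAAV-Lmo3 eWAT and 132, 143 and 140 in rAAV-YFP eWAT. All rAAV-Lmo3 pools lay below all rAAV-YFP pools. The log2 difference was -0.19 ± 0.08 (1.14-fold lower), with an unadjusted limma p of 0.045 and an adjusted p of 0.97, at an intensity just above the brightness limit. Leaving out any 1 of the 6 arrays gave an unadjusted limma p between 0.051 and 0.11. Cxcr3, the receptor of Cxcl9 and Cxcl10 on activated T cells, had 131, 106 and 119 in rAAV-Lmo3 eWAT and 144, 131 and 144 in rAAV-YFP eWAT. The groups met at 131, and the difference was -0.24 ± 0.10, with an unadjusted limma p of 0.053.

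T cell markers lay in the same direction. Of 10 measured, 3 were bright enough to test. The pan-T cell gene Cd3e had 183, 245 and 220 in rAAV-Lmo3 eWAT and 268, 248 and 355 in rAAV-YFP eWAT (-0.42 ± 0.17), and the adhesion receptor Cd2 had 113, 100 and 97 in rAAV-Lmo3 eWAT and 129, 124 and 147 in rAAV-YFP eWAT (-0.37 ± 0.10). Neither overlapped between the groups (5.95% of all genes were lower without overlap). The unadjusted limma p was 0.043 for Cd3e and 0.0097 for Cd2, where 2.4% of all genes were lower at a p under 0.05. The adjusted limma p was 0.97 for both genes. Cd5 differed by -0.01. The summed intensity of the 3 markers was between 418 and 465 in rAAV-Lmo3 eWAT and between 492 and 621 in rAAV-YFP eWAT, and the part of T cell content in Ccr7 and Cxcr3 was not tested.

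Cxcr4, the receptor of Cxcl12, had 353, 446 and 530 in rAAV-Lmo3 eWAT and 568, 372 and 560 in rAAV-YFP eWAT (-0.17 ± 0.21). Cx3cr1, carried by patrolling monocytes and some macrophages, had 160, 243 and 192 in rAAV-Lmo3 eWAT and 223, 192 and 248 in rAAV-YFP eWAT (-0.17 ± 0.17). Both overlapped between the groups, with rAAV-Lmo3 1 lowest, and without that pool the differences were -0.01 for Cxcr4 and -0.03 for Cx3cr1. The largest negative differences were -0.37 for Cxcr4 without rAAV-YFP 2 and -0.33 for Cx3cr1 without rAAV-Lmo3 2. The atypical receptors had ranges over the 6 arrays of 0.23 to 0.48 on the log2 scale, under the median of the 28 genes. Ackr1, which carries chemokines across venular endothelium, had 122, 135 and 159 in rAAV-Lmo3 eWAT and 128, 128 and 127 in rAAV-YFP eWAT (0.11 ± 0.11). This rested on rAAV-Lmo3 3, without which the difference was 0.01, and it was 0.20 without rAAV-Lmo3 1. Ackr3, the scavenger of Cxcl12, had 201, 247 and 182 in rAAV-Lmo3 eWAT and 177, 204 and 236 in rAAV-YFP eWAT (0.03 ± 0.15), and Ackr2, which clears inflammatory CC ligands, differed by 0.08 ± 0.09. The other dim receptors were Ccr1l1, Ccr4, Ccr6, Ccr8, Ccr9, Ccr10, Cxcr1, Cxcr5, Cxcr6, Xcr1 and Ackr4, with intensities between 27 (Ccr8) and 127 (Ccr10), and the dim ligands not yet named were Cxcl17 and Xcl1.

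**Figure D4:**
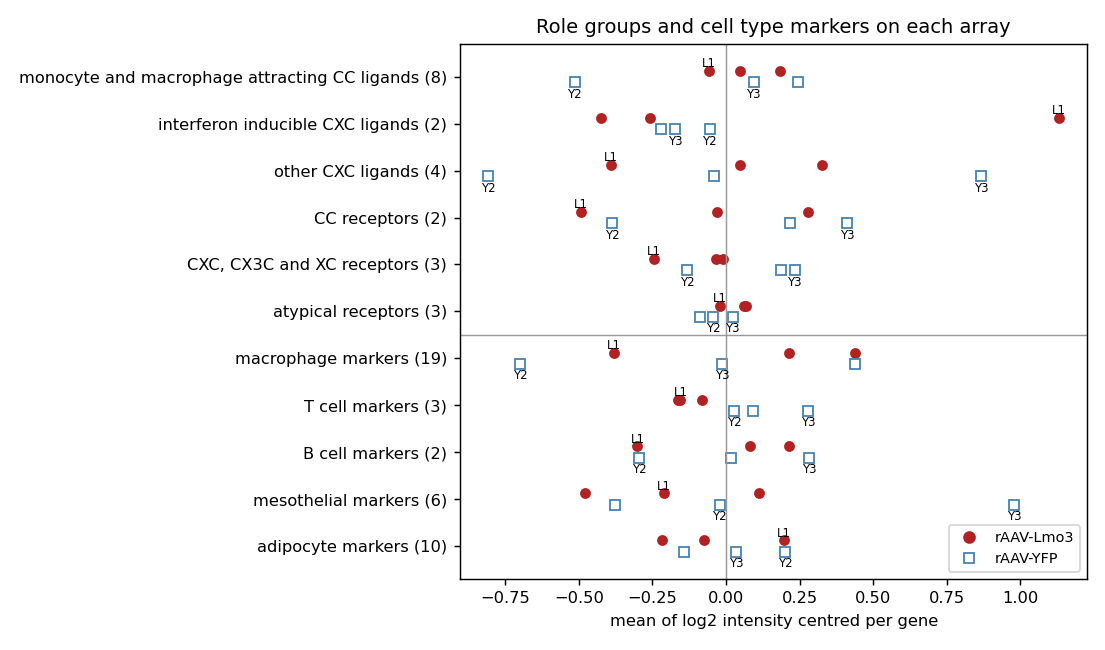
Mean over genes of the log2 intensity centred per gene on each array, for 6 role groups of chemokine and receptor genes above the line and 5 marker lists below it, with the number of genes tested in brackets. Filled circles are rAAV-Lmo3 pools above rAAV-YFP pools as open squares. Y2 was lowest for the monocyte and macrophage ligands and the macrophage markers, L1 was high for the interferon-inducible ligands, and Y3 was high for the other CXC ligands and the mesothelial markers.

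The pools that stood apart showed in many of the genes. Of the 28, 11 were lowest on rAAV-YFP 2 (39.3%, against 25.0% of all genes tested), among them 5 of the 8 monocyte and macrophage ligands and all 4 other CXC ligands tested. Compared with the other two arrays of its own group, 21 of the 28 genes were lower on rAAV-YFP 2 (53.1% of all genes tested) and 19 on rAAV-Lmo3 1 (49.2% of all genes tested). With both pools left out, 15 of the 28 differences lay above 0, as before, with a median of 0.02. At an unadjusted limma p under 0.05 there were then 3 genes lower, Ccl5, Ccl11 and Cxcr3, without Ccr7 (1.84% of all genes tested were lower), and 0 higher (2.36% of all genes tested), and the smallest adjusted p among the 28 genes was 0.999. Over the 6 fits with 1 array left out, the sign of the difference turned at least once for 16 of the 28 genes.

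The wider chemokine pathway had as few calls. None of 7 tested chemokine system genes outside the symbol rule and none of 35 genes of receptor signalling, such as G protein subunits, arrestins and kinases, had an unadjusted limma p under 0.05, and no gene of these lists or those below passed adjustment. Of all genes tested, 2.27% were higher and 2.4% lower at this p. In the NF-kappaB pathway 1 of 15 genes was lower at this p, the transcription factor subunit Rela. It had 921, 991 and 999 in rAAV-Lmo3 eWAT and 1088, 1236 and 1107 in rAAV-YFP eWAT. Its groups did not overlap (5.95% of all genes were lower without overlap). Its log2 difference was -0.24 ± 0.09 with an unadjusted limma p of 0.030 and an adjusted p of 0.97. Among genes of leukocyte arrest and adhesion 1 of 16 was lower, the endothelial adhesion molecule Esam, with 546, 704 and 598 in rAAV-Lmo3 eWAT and 667, 815 and 836 in rAAV-YFP eWAT (-0.33 ± 0.13), where the groups overlapped. Esam is also 1 of 9 tested endothelial markers, of which 8 had a difference below 0 (49.7% of all genes tested). The part of endothelial content in Esam was not tested.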

How the data were processed

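RNA of eWAT was measured on Affymetrix mouse Gene ST arrays. The deposited values are intensity values per probe set, which the authors obtained by RMA (background correction, quantile normalization, median polish) in Affymetrix Expression Console 1.1. These are linear values in whole numbers, so log2 was taken here. Of 35556 probe sets, 21789 had a single gene symbol, 1621 several and 12146 none; 7 of those with several include a chemokine symbol and were not used. RefSeq (GRCm38.p6) held the genes of 21698 of the single-symbol probe sets and changed 0 symbols. No batch is given in the sources used here. Sample titles name rAAV-YFP as control and the treatment protocol rAAV-LacZ, and the titles were followed.

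The brightest probe set per symbol was kept, and the dimmest 40% of genes (below a mean log2 intensity of 6.83) were left out. A two-sided test of the 11963 others used lmFit and eBayes of limma 3.58.1 (R 4.3.3) without covariates, and p-values were adjusted by Benjamini-Hochberg (threshold 0.05). A ± value after a difference is the SE of the moderated difference. Probe sets differ in affinity, so levels are not compared between genes. The steps were tested on simulated data with independent noise for each gene, in which no pools stood apart as they did here.

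Named with values on every array were genes with an unadjusted p under 0.05, the 8 with the largest positive and the 8 with the largest negative differences, and those best known in obese fat. Ccl24, Ccl19, Ccl25, Ccl12 and Cxcl11 were added by role after their values were seen, as were the interferon genes, Cd3e, Cd2, Upk3b and Ms4a1. The genes and lists were chosen with earlier results of these arrays known. Alternatives were other scalings, array weights, another prior, the methods' t-test, a replicate block, other filters on dim genes, the mean over probe sets, and leaving out each array or both that stood apart.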

Additional observations from a re-analysis of the deposited data

How the results depend on the processing

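No chemokine or receptor gene passed the adjusted test under any alternative, and the smallest adjusted p among them was 0.73, with array weights. The count lower at an unadjusted limma p under 0.05 was 1 (Ccr7), as given above. It was 0 with each array centred on its median (1.81% of all genes) and with the dimmest 60% left out (2.68%). It was 2 with array weights (Ccl11, Cxcr3, 3.13% of all genes), a trend and robust prior (Ccr7, Cxcr3, 2.32%) or no filter (2.3%). Without rAAV-Lmo3 1 and rAAV-YFP 2 the count was 3 (1.84% of all genes). With a second quantile normalization it was still 1 (2.38% of all genes), but Ccl11 took the place of Ccr7, whose unadjusted limma p was then 0.061. The count higher (0) was 1 with no filter, the dim Ccl28 (1.92% of all genes). Groups that did not overlap were 1 lower with median centring (4.68% of all genes) or the dimmest 60% left out (6.34%). They were 1 higher with the mean over probe sets (Ccl25, 4.51% of all genes). Without both arrays they were 4 higher and 7 lower, where 13.4% of all genes were higher and 16.7% lower without overlap. With no filter 24 of 56 differences lay above 0, and with the stricter one 9 of 15.

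Leaving out 1 array at a time gave 0 to 2 genes higher and 0 to 2 lower at an unadjusted limma p under 0.05. Over these fits 1.02% to 3.38% of all genes were higher and 1.17% to 2.83% lower at this p. Groups that did not overlap were then 0 to 4 higher, the most without rAAV-Lmo3 1 (10.3% of all genes), and 2 to 7 lower, the most without rAAV-YFP 2 (9.33% of all genes). With fewer arrays groups overlap less often for any gene, and over these 6 fits the shares of all genes were 6.59% to 12.6% higher and 8.41% to 12.5% lower. Differences above 0 were 11 (without rAAV-YFP 2) to 20 (without rAAV-YFP 3), and the median difference was -0.07 to 0.10. Ccl3 and Ccl6 were higher at this p without rAAV-YFP 1 and Ccl8 without rAAV-YFP 3, Ccl2 was lower without rAAV-Lmo3 2, Ccl5 and Cxcr3 were lower without rAAV-YFP 2, and Ccl11 and Cxcr3 were lower without rAAV-Lmo3 1. Ccr7 was not among these genes for any of the 6 arrays left out. The sign of the difference turned without 1 array for 16 of the 28 tested genes and for the dim Cxcr2 (lowest -0.128, highest 0.0703). These were Cxcl9 (lowest -0.119, highest 0.629), Cxcl10 (-0.268, 0.559), Cxcl13 (-1.55, 0.865), Cxcl14 (-0.0546, 0.384), Cxcl16 (-0.0969, 0.432), Cx3cl1 (-0.157, 0.0708), Ccl5 (-0.250, 0.0187), Ccl6 (-0.0568, 0.530), Ccl7 (-0.375, 0.0116), Ccl9 (-0.0189, 0.499), Ccr2 (-0.624, 0.244), Ccl4 (-0.0664, 0.0364), Ccl19 (-0.232, 0.360), Ccl24 (-0.325, 0.155), Ccl25 (-0.0638, 0.122) and Ackr3 (-0.0948, 0.132). With array weights Cxcl9 was -0.00084, Cxcl10 -0.141 and Cx3cl1 0.0191, and without both arrays Cxcl9 was -0.0837, Cxcl10 -0.208 and Cx3cl1 0.0373. The cause was not tested, and some settings also held fewer arrays or genes.

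Replicate numbers are shared between the groups, and the sources used here do not say whether they pair the samples. Deviations of same-numbered arrays correlated at -0.55, -0.40 and 0.26. With so few arrays in each group, these correlations cannot decide whether same-numbered pools were handled together. With the replicate number as a block, 1 gene was lower at an unadjusted limma p under 0.05, Cxcr3 in place of Ccr7 (1.98% of all genes). In that fit 0 were higher (1.81% of all genes), and the median difference was 0.03. Arrays give no counts, and the 28 dim genes were compared only with no filter.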
